A study of Homo sapiens with 8 samples.

Results

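The transcription factors described here are 10 genes that act in epithelial-mesenchymal transition (EMT) or in the specification of the neural crest: the Snail factors SNAI1 and SNAI2, the ZEB factors ZEB1 and ZEB2, the Twist factors TWIST1 and TWIST2, the AP-2 factors TFAP2A, TFAP2B and TFAP2C, and the forkhead factor FOXD3. They were taken by name from the 35238 gene symbols of the count table for MP38 cells, where all 10 were present. Of these, 9 passed the filter on low counts, as did 15085 symbols in all, and TFAP2B did not. The measurement was bulk RNA sequencing of MP38, a BAP1-mutant uveal melanoma cell line, after 24 h of treatment. The 4 groups of 2 libraries each were cells in 0.1% DMSO (control), 40 nM romidepsin, 40 nM quisinostat and 1200 nM mivebresib. Romidepsin and quisinostat inhibit histone deacetylases (HDACs), and mivebresib inhibits the BET bromodomain proteins that read acetylated histones. Doses were set in pilot tests on morphology and viability, so the drugs were not matched in dose. MP38 is 1 cell line and the libraries were replicate wells, so the p-values measure the spread between wells, pooled over the 4 groups. Libraries of the lines MP41 and MP46, which the study also describes, were not analysed here.

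Snail, ZEB and Twist proteins are DNA-binding repressors or activators that recognise E-box sequences, and they are best known for silencing epithelial junction genes such as CDH1 (E-cadherin) while mesenchymal genes are switched on. The same proteins, together with AP-2 factors and FOXD3, act in the neural crest, the embryonic population that gives rise to melanocytes. In melanocytic cells these factors do not move as one group: ZEB2 and SNAI2 belong to the normal melanocyte programme, whereas ZEB1 and TWIST1 are associated with a dedifferentiated state in cutaneous melanoma.

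Total counts per library ran from 28483235 to 29359024, so depth was nearly equal across the groups. The control wells differed from each other more than the wells of any drug did, with a chi-square per degree of freedom of 58.1 between the control libraries against 9.52 to 9.79 within the drug groups. The tests pooled the spread of each gene over all groups, so p-values against control may understate the spread of the control wells. Of 8 melanocytic markers, 5 were abundant in every library (TYRP1, PMEL, MITF, MLANA and SOX10), with TYRP1, a melanosomal enzyme, at 2748 CPM or more. The other 3 were scarce: TYR, the key enzyme of melanin synthesis, was at 1.51 to 3.51 CPM, DCT had at most 5 counts and S100B at most 14. CPM, the usual depth-normalised read count, was computed with TMM-scaled library sizes. Their summed level, most of it from TYRP1, was 4194 to 5452 CPM in the control, 4739 to 5027 CPM with romidepsin, 3563 to 4108 CPM with quisinostat and 3698 to 3776 CPM with mivebresib. Markers of other cell types were mixed. CDH5 and CD3E had 0 counts in all 8 libraries, LUM 1 count or fewer, EPCAM 5 counts or fewer and the immune marker PTPRC 11 or fewer. However, CD68, also from the immune list, was at 61.1 to 83.0 CPM, PDGFRA at 7.10 to 26.4 CPM, COL1A1 at 1.02 to 10.4 CPM and KRT18 at 1.86 to 6.39 CPM. All libraries came from a cultured line, and the study checked its lines by short tandem repeat analysis. The part of these markers in the results was not tested. Bulk counts cannot tell fewer cells of a type from less RNA per cell.

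On GRCh38, in the GENCODE 29 annotation, the ZEB genes lie at chr10:31318495-31529814 (ZEB1, plus strand) and chr2:144364364-144524583 (ZEB2, minus strand). SNAI1 spans chr20:49982999-49988886 and SNAI2 chr8:48917604-48921740. TWIST1 spans chr7:19020991-19117672 and TWIST2 chr2:238848032-238910543. The AP-2 genes are TFAP2A at chr6:10393186-10419659, TFAP2B at chr6:50818723-50847613 and TFAP2C at chr20:56629302-56639283, and FOXD3 occupies chr1:63323041-63325126. Antisense genes overlap ZEB1, ZEB2, TWIST1, TFAP2A and FOXD3 in the annotation, and none of them has a row of its own in the count table. Whether the counting used strand is not given in the sources used here, so reads of these 5 genes and of their antisense partners cannot be told apart. The pseudogenes SNAI1P1 and ZEB2P1 had 0 or 1 counts in every library.

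To compare levels between genes, CPM was divided by gene length, taken as the union of annotated exons. In the control cells TFAP2C was the highest, at up to 31.0 CPM per kb, followed by TFAP2A at 16.8 CPM per kb. SNAI2 (9.99 CPM per kb) and ZEB2 (9.95 CPM per kb) came next, and their ranges overlapped. TWIST2 stood at 5.67 CPM per kb, TWIST1 at 3.12, FOXD3 at 2.06, ZEB1 at 0.904 and SNAI1 at 0.428 CPM per kb, and none of these neighbours overlapped. TFAP2B was at the bottom, with 0 counts in 6 of the 8 libraries and 1 count in 1 quisinostat and 1 mivebresib library, and a count of 0 allows up to 3 counts, or 0.0949 to 0.110 CPM. The order at the top changed with treatment: TFAP2A came first with quisinostat (19.6 CPM per kb) and with mivebresib (25.2 CPM per kb), ahead of TFAP2C at 14.3 and 16.8 CPM per kb. When each gene was instead divided by its longest annotated transcript, 4 members changed rank in the control cells, with TFAP2A at 36.4 CPM per kb above TFAP2C at 31.4 and ZEB2 at 26.0 above SNAI2 at 12.0 CPM per kb.

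Upstream sequences of these genes are shown because the factors are known to regulate one another through such motifs. RefSeq (GRCh38.p14) held 13 promoters for 6 of the 10 members: ZEB1, ZEB2, TWIST2, TFAP2A, TFAP2B and FOXD3. A search of both strands of the 250 bases before each start was made for the E-box CAGGTG, whose other strand reads in the searched direction as CACCTG, which Snail and ZEB proteins bind, and for the AP-2 motif GCCNNNGGC. Among all 35116 promoters, 17.5% held the E-box and 19.8% the AP-2 motif. Of the member promoters, 2 of the 7 listed for ZEB1 held an E-box and the promoter of TWIST2 held an AP-2 motif, and the others held neither. A match is a description of letters and not a binding site. The windows of 4 members that overlap no annotated exon are given from the upstream side to the start, with motif matches in capitals: ZEB1 on the plus strand, chr10:31318167-31318416, with its E-box 57 bases before the start, TWIST2 on the plus strand, chr2:238847835-238848031, cut short at the annotated exon, with its AP-2 motif 122 bases before the start, and 2 windows without a match, FOXD3 on the plus strand, chr1:63322317-63322566, and TFAP2A on the minus strand, chr6:10419660-10419909.
ZEB1: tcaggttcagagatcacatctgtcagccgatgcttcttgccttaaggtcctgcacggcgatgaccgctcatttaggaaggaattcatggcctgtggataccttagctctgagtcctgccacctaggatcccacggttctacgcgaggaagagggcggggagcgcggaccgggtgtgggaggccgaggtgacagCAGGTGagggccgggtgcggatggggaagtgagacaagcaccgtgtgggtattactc
TWIST2: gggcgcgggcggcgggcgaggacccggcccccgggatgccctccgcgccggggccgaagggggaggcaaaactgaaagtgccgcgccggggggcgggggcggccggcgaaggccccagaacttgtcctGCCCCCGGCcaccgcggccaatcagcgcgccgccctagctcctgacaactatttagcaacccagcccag
FOXD3: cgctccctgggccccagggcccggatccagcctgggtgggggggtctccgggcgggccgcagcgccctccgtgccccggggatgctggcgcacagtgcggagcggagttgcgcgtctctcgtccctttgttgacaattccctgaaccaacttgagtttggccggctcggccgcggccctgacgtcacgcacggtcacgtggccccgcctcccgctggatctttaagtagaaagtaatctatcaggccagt
TFAP2A: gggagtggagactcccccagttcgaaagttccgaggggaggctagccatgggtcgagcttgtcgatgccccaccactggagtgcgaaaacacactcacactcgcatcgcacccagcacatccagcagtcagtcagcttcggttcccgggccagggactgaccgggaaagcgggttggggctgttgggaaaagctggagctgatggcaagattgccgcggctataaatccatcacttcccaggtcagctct

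Tested against control with edgeR (quasi-likelihood, Benjamini-Hochberg adjusted p below 0.05 over 15085 genes), 3 members were higher and 3 lower with romidepsin, 4 higher and 3 lower with quisinostat, and 3 higher and 5 lower with mivebresib. The share of all tested genes called was 15.2% higher and 15.8% lower with romidepsin, 28% higher and 25.1% lower with quisinostat, and 22.2% higher and 24.1% lower with mivebresib. Without control replicate 2, 6 members were lower with romidepsin and 5 with quisinostat, and without quisinostat replicate 1, 2 were higher with quisinostat. The median log2 fold change of the 9 tested members was -0.57, -0.21 and -0.83 for romidepsin, quisinostat and mivebresib, where the median of all genes was -0.012, -0.0036 and 0.0067. Their median absolute change was 0.63, 0.76 and 0.86, against 0.30, 0.43 and 0.41 for all genes. ZEB1 and TWIST1 rose with all 3 drugs, and ZEB2 and TFAP2C fell with all 3. The ZEB1 call with mivebresib (adjusted p = 0.0475) was lost with DESeq2 (0.0811) and with replicate number as a block (0.0571). With that block, or with the 4 libraries of a comparison alone, 3 members were higher with quisinostat and 2 with mivebresib. The 3 comparisons share the control libraries, the pair that differed most. Few of these changes were large. Beyond an absolute log2 fold change of 1.5, the threshold of the study, 1 member was higher with romidepsin (SNAI1), where 3.77% of genes were higher and 0.312% lower. No member passed that threshold with quisinostat, where 11.2% of genes were higher and 1.03% lower, and 1 was lower with mivebresib (FOXD3), where 3.96% of genes were higher and 4.36% lower.

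**Figure D1:**
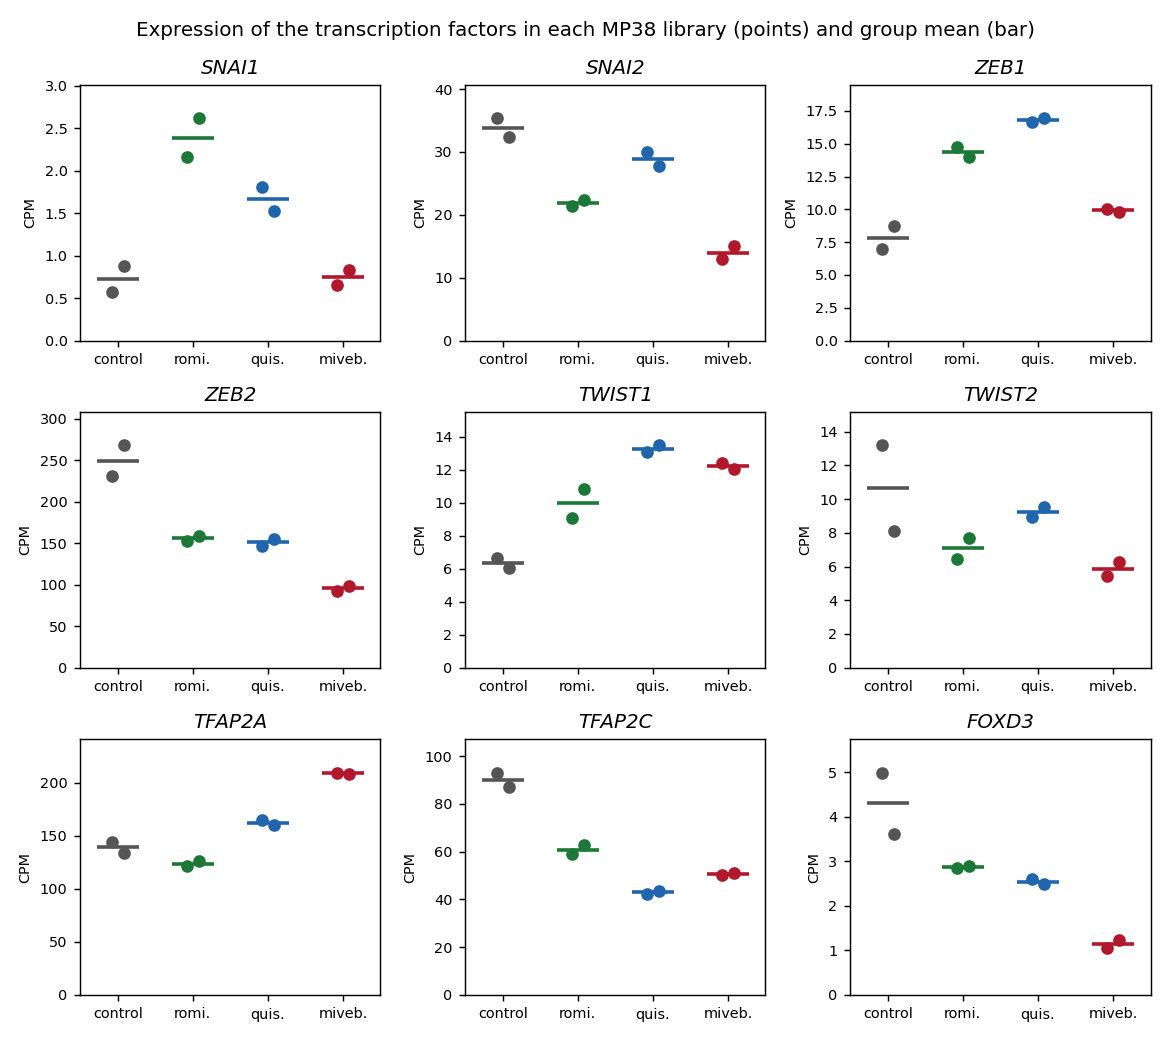
Level of the 9 tested factors, in CPM on linear axes that start at 0, in each MP38 library (points) with the mean of the 2 libraries (bar) for control, romidepsin (romi.), quisinostat (quis.) and mivebresib (miveb.). ZEB1 and TWIST1 sit above the control in all 6 drug libraries and ZEB2 and TFAP2C sit below it, with ZEB2 lowest with mivebresib at 92.5 and 98.9 CPM.

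ZEB1 and ZEB2, zinc finger and homeobox repressors that bind the same E-boxes, moved in opposite directions. ZEB2 measured 231 and 268 CPM in the control libraries, 152 and 159 CPM with romidepsin, 147 and 155 CPM with quisinostat, and 92.5 and 98.9 CPM with mivebresib. All 6 drug libraries were below both controls, the HDAC inhibitor libraries overlapped, and the mivebresib libraries were the lowest. The log2 fold change was -0.68 (SE 0.094, adjusted p = 0.00129) with romidepsin, -0.72 (SE 0.094, adjusted p = 0.000316) with quisinostat and -1.38 (SE 0.096, adjusted p = 1.54e-05) with mivebresib. ZEB2 fell by 61.6% with mivebresib. ZEB1 measured 6.94 and 8.69 CPM in the control, 14.7 and 14.0 CPM with romidepsin, 16.7 and 16.9 CPM with quisinostat, and 10.1 and 9.82 CPM with mivebresib. The drug libraries were all above the controls, with quisinostat the highest. ZEB1 rose by a log2 fold change of 0.88 (SE 0.12, adjusted p = 0.00119) with romidepsin and 1.10 (SE 0.12, adjusted p = 0.000115) with quisinostat, close to doubling. With mivebresib the change was 0.35 (SE 0.12, adjusted p = 0.0475), and this call was lost when any library other than control replicate 2 was left out (adjusted p up to 0.239, without control replicate 1) and with DESeq2 (adjusted p = 0.0811).

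SNAI1 and SNAI2 (Slug) are zinc finger repressors of CDH1. SNAI1 was scarce, with 16 and 24 counts in the control libraries, 63 and 76 with romidepsin, 57 and 48 with quisinostat and 18 and 23 with mivebresib. In CPM it stood at 0.722 ± 0.219 (SD, n = 2) in the control, 2.39 ± 0.321 with romidepsin, 1.67 ± 0.195 with quisinostat and 0.743 ± 0.119 with mivebresib. Libraries of both HDAC inhibitors lay above the controls, and the mivebresib libraries lay within the control range. SNAI1 rose 3.31-fold with romidepsin (log2 fold change 1.72, SE 0.28, adjusted p = 0.00272) and 2.31-fold with quisinostat (1.21, SE 0.29, adjusted p = 0.00783), and the quisinostat call was lost without quisinostat replicate 1 (adjusted p = 0.0519). For mivebresib the estimate was 0.045 with a 95% interval from -0.71 to 0.80 (adjusted p = 0.925), an interval wide enough to hold a change of either sign.

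SNAI2 was far more abundant than SNAI1, at 35.4 and 32.4 CPM in the control, 21.3 and 22.4 CPM with romidepsin, 29.9 and 27.7 CPM with quisinostat, and 12.9 and 15.0 CPM with mivebresib. No drug library reached the control range, and the mivebresib libraries were again the lowest. SNAI2 fell with romidepsin (log2 fold change -0.63, SE 0.10, adjusted p = 0.00235) and with mivebresib (-1.28, SE 0.10, adjusted p = 3.19e-05), the latter a drop by 58.7%. With quisinostat the estimate was -0.23 (95% interval -0.46 to -0.01, adjusted p = 0.0751), which did not pass. It ran from -0.30, without control replicate 2, to -0.17 when single libraries were left out.

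The Twist factors, basic helix-loop-helix proteins that work as dimers with E proteins, also differed. TWIST1 measured 6.66 and 6.03 CPM in the control, 9.10 and 10.8 CPM with romidepsin, 13.0 and 13.5 CPM with quisinostat, and 12.4 and 12.0 CPM with mivebresib. All drug libraries exceeded both controls. TWIST1 rose by 0.65 (SE 0.12, adjusted p = 0.0051), 1.06 (SE 0.12, adjusted p = 0.000145) and 0.95 (SE 0.12, adjusted p = 0.000358) on the log2 scale with romidepsin, quisinostat and mivebresib. TWIST2 was the member whose control wells disagreed most, at 13.2 and 8.11 CPM, beside 6.46 and 7.71 CPM with romidepsin, 8.96 and 9.52 CPM with quisinostat, and 5.45 and 6.26 CPM with mivebresib. The quisinostat libraries lay between the controls, and those of the other drugs lay below both. TWIST2 fell with mivebresib (-0.86, SE 0.22, adjusted p = 0.0122), a call that was lost without mivebresib replicate 1 (adjusted p = 0.0818). The estimates were -0.59 (95% interval -1.08 to -0.10, adjusted p = 0.0696) with romidepsin and -0.21 (-0.69 to 0.28, adjusted p = 0.438) with quisinostat. Without control replicate 2 the estimates were -0.90 and -0.52. With single libraries left out, the romidepsin estimate reached -0.17 at its other end, and the quisinostat estimate was 0.18 without control replicate 1.

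The AP-2 factors bind GC-rich sites as dimers and are required for neural crest and melanocyte development. TFAP2A measured 145 and 134 CPM in the control, 121 and 126 CPM with romidepsin, 165 and 160 CPM with quisinostat, and 210 and 208 CPM with mivebresib. The groups did not overlap, and mivebresib was the highest. TFAP2A rose with mivebresib (log2 fold change 0.58, SE 0.078, adjusted p = 0.000445). It rose by 0.22 (SE 0.078, adjusted p = 0.0402) with quisinostat, a call lost when any library other than control replicate 1 was left out (adjusted p up to 0.173, without quisinostat replicate 1). With romidepsin the estimate was -0.17 (95% interval -0.35 to 0.01, adjusted p = 0.127), which did not pass. It ran from -0.23, without control replicate 2, to -0.09 when single libraries were left out. TFAP2C measured 93.1 and 87.2 CPM in the control, 58.8 and 62.7 CPM with romidepsin, 42.4 and 43.4 CPM with quisinostat, and 50.3 and 50.9 CPM with mivebresib. Every drug library was below the controls, quisinostat the most. TFAP2C fell by 0.57 (SE 0.076, adjusted p = 0.00106), 1.07 (SE 0.077, adjusted p = 1.31e-05) and 0.83 (SE 0.077, adjusted p = 6.19e-05) on the log2 scale with romidepsin, quisinostat and mivebresib.

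FOXD3, a forkhead repressor that maintains neural crest progenitors and restrains the melanocyte lineage in the embryo, had 141 and 99 counts in the control libraries, 83 and 84 with romidepsin, 82 and 78 with quisinostat, and 29 and 34 with mivebresib. The drug libraries were all below the controls and mivebresib was well apart from the rest. FOXD3 fell by 73.4% with mivebresib (log2 fold change -1.91, SE 0.22, adjusted p = 0.000201), the largest fall among the tested members in the 3 comparisons with control. It also fell with quisinostat (-0.76, SE 0.20, adjusted p = 0.0106), but not without control replicate 1 (adjusted p = 0.0724), quisinostat replicate 1 (0.0521) or quisinostat replicate 2 (0.0625). With romidepsin the estimate was -0.58 (95% interval -1.03 to -0.14, adjusted p = 0.0507), which did not pass. It ran from -0.80, without control replicate 2, to -0.31 when single libraries were left out.

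**Figure D2:**
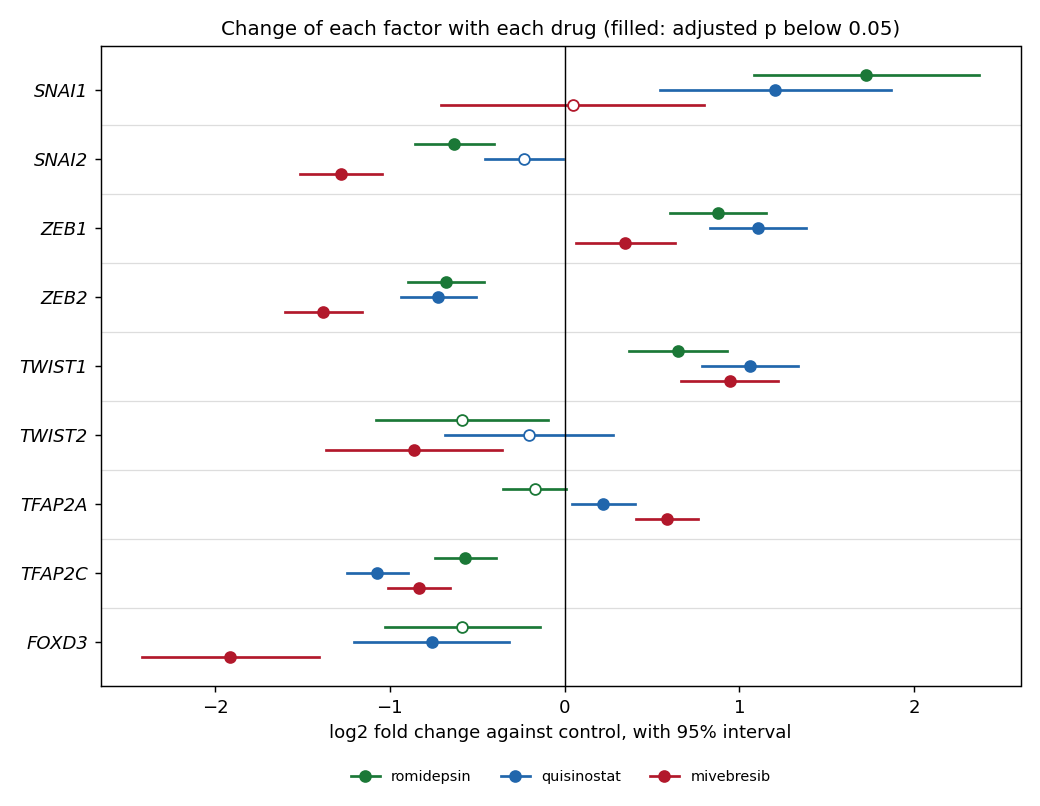
Log2 fold change against control of each tested factor (points) with its 95% interval (lines) for the 3 drugs; filled points passed an adjusted p of 0.05. SNAI1 with romidepsin (1.72) lies farthest to the right and FOXD3 with mivebresib (-1.91) farthest to the left.

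Within families, the balance between related genes shifted in each drug group. These pairs were chosen after the values above were seen, so the ratios of read counts within a library are given without a test, and as the genes differ in length a ratio is not one of molecules. ZEB2 to ZEB1 was 33.2 and 30.8 in the control libraries, 10.3 and 11.3 with romidepsin, 8.81 and 9.15 with quisinostat, and 9.2 and 10.1 with mivebresib. The drug ratios thus lay close together although the levels of both genes were lower with mivebresib than with the HDAC inhibitors. SNAI2 to SNAI1 was 62.4 and 37.0 in the control, 9.86 and 8.57 with romidepsin, 16.6 and 18.1 with quisinostat, and 19.7 and 18.1 with mivebresib. TWIST2 to TWIST1 was 1.98 and 1.35 in the control, 0.709 and 0.713 with romidepsin, 0.687 and 0.707 with quisinostat, and 0.440 and 0.519 with mivebresib, so TWIST2 gave more reads than TWIST1 in the control libraries and fewer in the 6 drug libraries. TFAP2A to TFAP2C was 1.55 and 1.54 in the control and higher with each drug, at 2.06 and 2.01, 3.89 and 3.68, and 4.17 and 4.09 with romidepsin, quisinostat and mivebresib.

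**Figure D3:**
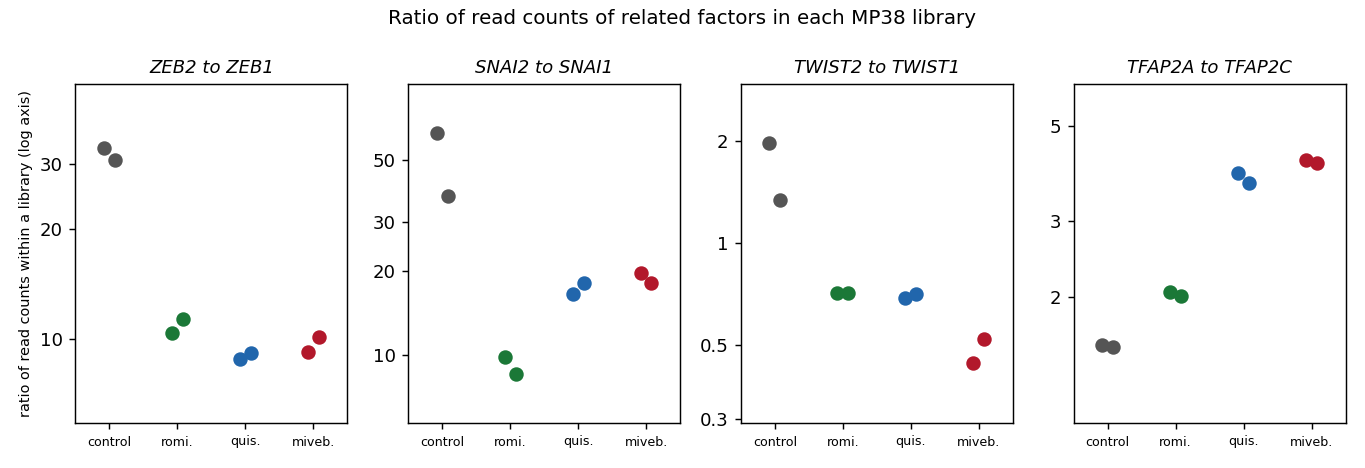
Ratio of read counts of related factors in each library, on log axes, with 2 points per group. For ZEB2 to ZEB1, SNAI2 to SNAI1 and TWIST2 to TWIST1 the control libraries lie above all drug libraries, and for TFAP2A to TFAP2C they lie below, at 1.55 and 1.54.

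The drugs were then compared directly. The concentrations of the HDAC inhibitors were the same (40 nM) and that of mivebresib was not (1200 nM). In the viability tests of the study romidepsin was more potent in MP38 than quisinostat, so equal concentrations were not matched doses either. Each difference below is thus one between these treatments and not between matched doses. Between the HDAC inhibitors, 3 members were higher and 1 lower with quisinostat than with romidepsin, where 21% of all genes were higher and 14.6% lower. SNAI2 (log2 fold change 0.40, adjusted p = 0.0151), TFAP2A (0.39, adjusted p = 0.00548) and TWIST1 (0.41, adjusted p = 0.0236) were the higher ones and TFAP2C (-0.50, adjusted p = 0.00173) was the lower. Without romidepsin replicate 1 or quisinostat replicate 1, 0 members were higher, and without quisinostat replicate 2, 1 was. The SNAI2 call was lost when any of the 4 HDAC inhibitor libraries was left out, TWIST1 without romidepsin replicate 1 or either quisinostat library, and TFAP2A without romidepsin replicate 1 or quisinostat replicate 1. The other 5 did not pass, with 95% intervals of -1.08 to 0.05 for SNAI1, -0.03 to 0.49 for ZEB1, -0.26 to 0.17 for ZEB2, -0.11 to 0.88 for TWIST2 and -0.64 to 0.28 for FOXD3. ZEB1 passed under scaling by library size alone (0.35, adjusted p = 0.0349), and TWIST2 passed without control replicate 1 (0.36, adjusted p = 0.0446) or 2 (0.38, adjusted p = 0.0343).

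Mivebresib stood lower than both HDAC inhibitors for most members. Against romidepsin, 1 member was higher and 6 lower, where 23.7% of all genes were higher and 25.2% lower. Against quisinostat, 2 members were higher and 6 lower, where 26.2% were higher and 31.5% lower. SNAI1 was lower by a log2 fold change of -1.68 (adjusted p = 0.00135) against romidepsin and -1.16 (adjusted p = 0.00827) against quisinostat, and the latter call was lost without quisinostat replicate 1 (adjusted p = 0.0543) or mivebresib replicate 1 (0.0558). FOXD3 was lower by -1.33 (adjusted p = 0.00158) and -1.15 (adjusted p = 0.00267), and SNAI2 by -0.65 (adjusted p = 0.00108) and -1.04 (adjusted p = 5.41e-05). The ZEB factors were lower as well, ZEB2 by -0.70 (adjusted p = 0.000442) and -0.66 (adjusted p = 0.00046) and ZEB1 by -0.53 (adjusted p = 0.00588) and -0.76 (adjusted p = 0.000661). TFAP2A was the exception in both comparisons, higher by 0.76 (adjusted p = 0.000103) and 0.36 (adjusted p = 0.00391), the second of which was lost under scaling by library size alone (0.18, adjusted p = 0.083). TFAP2C was lower than with romidepsin (-0.27, adjusted p = 0.02) and higher than with quisinostat (0.24, adjusted p = 0.0272), and each call was lost when any of the 4 libraries compared was left out (adjusted p up to 0.153), the latter also under library size alone (0.058, adjusted p = 0.571). TWIST2 was lower than with quisinostat (-0.66, adjusted p = 0.031), a call lost when any of the quisinostat and mivebresib libraries was left out (adjusted p up to 0.156), and its interval against romidepsin was -0.79 to 0.24. TWIST1 did not pass in either comparison, with intervals of 0.03 to 0.56 against romidepsin (adjusted p = 0.0644) and -0.38 to 0.14 against quisinostat. With single libraries left out, its estimate against romidepsin ran from 0.17 to 0.42.

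**Figure D4:**
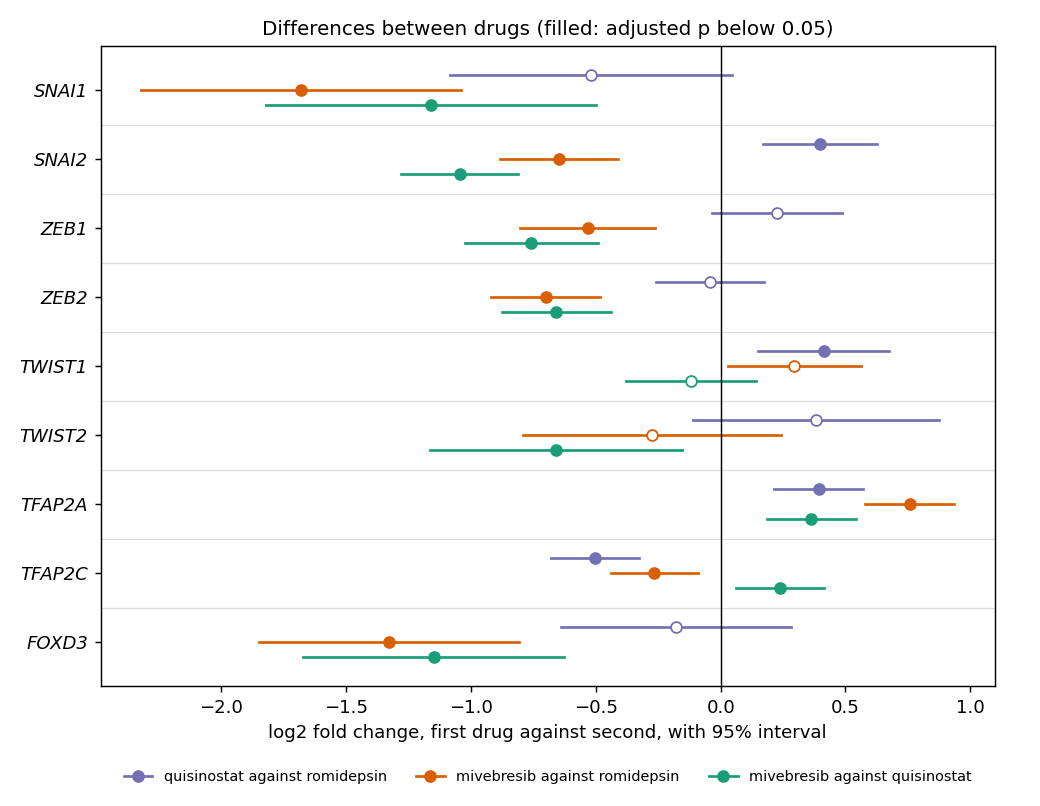
Log2 fold change of each tested factor between drugs, the first drug named against the second (points), with 95% intervals (lines); filled points passed an adjusted p of 0.05. SNAI1 and FOXD3 with mivebresib lie farthest to the left (-1.68 and -1.33 against romidepsin) and TFAP2A lies to the right in all 3 comparisons.

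The genes whose log2 CPM followed each factor most closely over the 8 libraries were named from 12847 genes with a mean of at least 1 CPM. Since the libraries fall into 4 groups of 2, such a correlation mostly reflects the group levels, and many genes reach a high value. ZEB1 was followed most closely by ITGA2, a collagen receptor subunit (Pearson r = 0.995), and OCLN, the tight junction protein occludin (r = 0.995), with 133 genes above 0.95. SNAI1 was followed by AHCYL1 (r = 0.979) and, after LRRC40, by CGN, the tight junction protein cingulin (r = 0.970). The nearest gene was CCL28 for SNAI2 (r = 0.994), STAG2 for ZEB2 (r = 0.993), HES2 for TWIST1 (r = 0.988), ZNF354A for TFAP2A (r = 0.995), AMMECR1L for TFAP2C (r = 0.995) and METTL21A for FOXD3 (r = 0.996). TWIST2 had the loosest match, FAM200B at 0.955, with 2 genes above 0.95.

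Epithelial junction and keratin genes are the class that Snail and ZEB proteins are known to repress. Of 29 listed genes 21 were tested, and 10 rose and 0 fell with romidepsin, where 15.2% of all genes rose and 15.8% fell. With quisinostat 12 rose and 1 fell, beside 28% and 25.1% of all genes, and with mivebresib 8 rose and 5 fell, beside 22.2% and 24.1%. The medians were 0.41, 0.68 and 0.40 on the log2 scale, and the counts of this and the following lists are descriptions without a test. OCLN, at 1.31 and 2.01 CPM in the control, reached 10.0 and 9.71 CPM with romidepsin (2.57, adjusted p = 7.63e-05) and 13.2 and 12.7 CPM with quisinostat (2.97, adjusted p = 4.99e-06). CGN rose from 2.02 ± 0.298 CPM (SD, n = 2) to 13.1 ± 0.194 with romidepsin, and TJP3, a tight junction scaffold, from 1.42 ± 0.158 to 9.02 ± 0.00746 CPM with quisinostat. With mivebresib CLDN3 (2.28, adjusted p = 5.07e-05) and the polarity gene LLGL2 (1.66, adjusted p = 5.22e-06) rose, while CLDN1 (-1.40, adjusted p = 0.00096) and CDH1 fell. CDH1, the best known Snail and ZEB target, was at 1.31 and 2.26 CPM in the control, 4.46 and 5.34 CPM with romidepsin, 3.39 and 4.71 CPM with quisinostat, and 0.695 and 0.539 CPM with mivebresib. It rose with the HDAC inhibitors (1.46, adjusted p = 0.00545, and 1.18, adjusted p = 0.00733) and fell with mivebresib (-1.53, adjusted p = 0.00927). The quisinostat call was lost without quisinostat replicate 2 (adjusted p = 0.0634) and the mivebresib call without mivebresib replicate 2 (0.07). CDH1 was higher with the drugs that raised SNAI1, and lower with mivebresib, where ZEB2 and SNAI2 were at their lowest. A relation of CDH1 to these factors was not tested. CDH1 stayed at 5.34 CPM or less in every library.

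Of 29 listed mesenchymal genes 24 were tested, and 2 rose and 14 fell with mivebresib (median -0.82), where 24.1% of all genes fell, against 3 and 3 with romidepsin (median 0.16) and 4 and 6 with quisinostat (median -0.015). Of all genes, 22.2% rose with mivebresib, 15.2% rose and 15.8% fell with romidepsin, and 28% rose and 25.1% fell with quisinostat. Compared directly with romidepsin, 0 listed genes were higher and 15 lower with mivebresib, where 23.7% and 25.2% of all genes were. The higher counts depended on control replicate 2, without which 12, 9 and 5 genes rose with romidepsin, quisinostat and mivebresib, while 3, 6 and 12 fell. FAP, a fibroblast activation protease, measured 91.7 and 122 CPM in the control and fell with each drug, to 77.0 and 70.6 CPM with romidepsin (-0.53, adjusted p = 0.0173), 34.6 and 39.6 CPM with quisinostat (-1.52, adjusted p = 4.1e-05) and 21.4 and 21.2 CPM with mivebresib (-2.32, adjusted p = 8.94e-06). The romidepsin call was lost without either romidepsin library and with the 4 libraries of that comparison alone. TAGLN, an actin-binding protein, fell with quisinostat (-2.06, adjusted p = 4.7e-06) and TGFBI, a matrix protein, with mivebresib (-1.98, adjusted p = 6.78e-05). Some members of the list went the other way, as COL1A1 (2.58, adjusted p = 6.77e-05) and MMP9 (3.33, adjusted p = 2.21e-05) rose with quisinostat. MMP9 was scarce, with a mean of 0.323 CPM in the control and 3.30 CPM with quisinostat. COL1A1 is also a fibroblast marker, and the summed level of the 6 fibroblast markers was 14.5 to 22.6 CPM in the control, 20.4 to 24.8 CPM with romidepsin, 34.8 to 35.7 CPM with quisinostat and 8.34 to 10.6 CPM with mivebresib, almost all of it from COL1A1 and PDGFRA, while DCN, LUM and COL3A1 had 5 counts or fewer in any library.

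**Figure D5:**
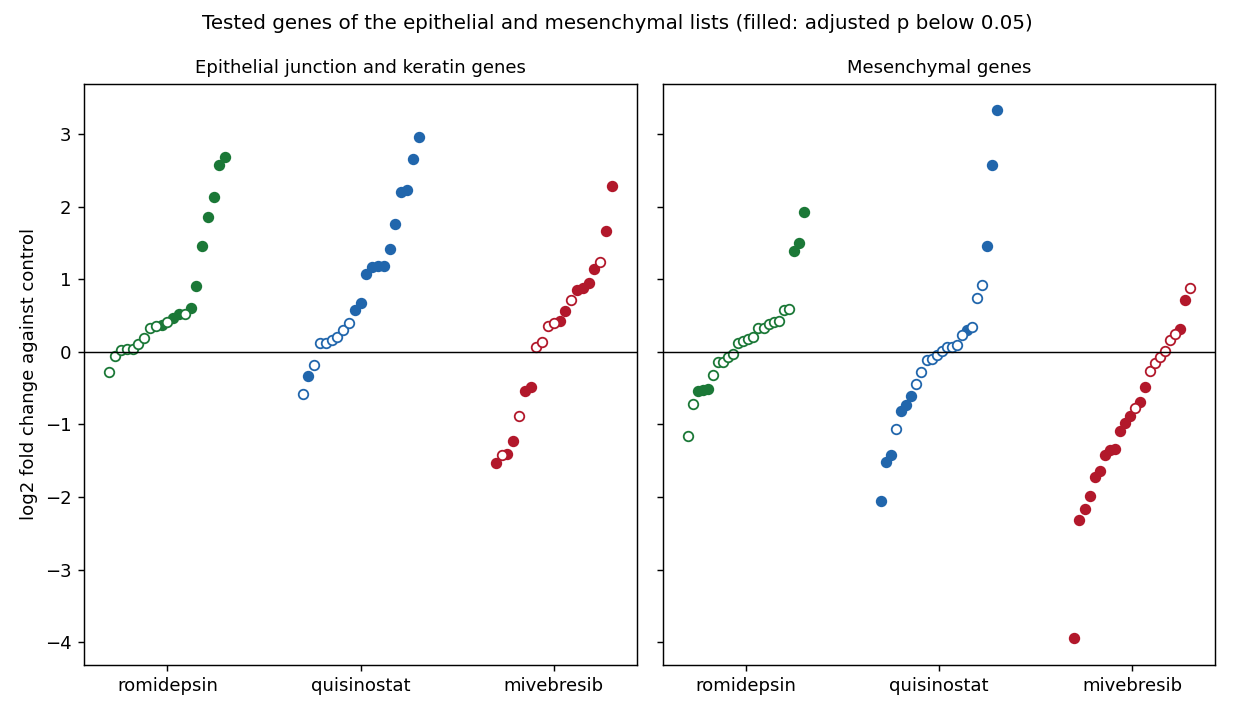
Log2 fold change against control of the tested genes of the epithelial junction and keratin list (left, 21 genes) and the mesenchymal list (right, 24 genes) for each drug, sorted from low to high; filled points passed an adjusted p of 0.05. With mivebresib 14 filled mesenchymal genes lie below 0 and 2 above, and with romidepsin 10 filled epithelial genes lie above 0 and 0 below.

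Epithelial transcription and splicing factors were largely silent, as 5 of 11 listed genes were tested. Among all genes, 15.2% rose and 15.8% fell with romidepsin, 28% and 25.1% with quisinostat, and 22.2% and 24.1% with mivebresib. Of the 5 listed genes tested, 4 rose and 0 fell with romidepsin, 3 rose and 1 fell with quisinostat, and 2 rose and 1 fell with mivebresib. The gene that fell with quisinostat and with mivebresib, but not with romidepsin, was ESRP1, a splicing regulator that maintains epithelial isoforms. ZEB1 represses it in carcinoma cells, a relation that was not tested here. ESRP1 stood at 26.1 and 17.9 CPM in the control, 10.9 and 10.2 CPM with quisinostat (-1.06, adjusted p = 0.000807) and 0.512 and 0.539 CPM with mivebresib (-5.37, adjusted p = 2.61e-06). GRHL1, a grainyhead factor of epithelia, rose from 1.01 ± 0.276 CPM to 2.56 ± 0.0779 with romidepsin and 3.61 ± 0.239 with mivebresib, and KLF4 rose with quisinostat (0.71, adjusted p = 0.000344) and mivebresib (0.52, adjusted p = 0.00243).

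Of 40 other neural crest transcription factors 36 were tested, and 8 rose and 7 fell with romidepsin, 15 rose and 11 fell with quisinostat, and 8 rose and 14 fell with mivebresib. Over all genes, 15.2% rose and 15.8% fell with romidepsin, 28% and 25.1% with quisinostat, and 22.2% and 24.1% with mivebresib. EBF1 (3.80, adjusted p = 8.79e-06) and HAND1 (2.70, adjusted p = 0.000108) rose most with quisinostat, to 5.08 ± 0.380 and 3.75 ± 0.254 CPM. Both were scarce in the control, at 0.360 ± 0.00779 and 0.572 ± 0.293 CPM. SOX8 fell with romidepsin (-1.25, adjusted p = 0.000177), as did MYB (4.42 ± 0.616 to 1.57 ± 0.319 CPM, adjusted p = 0.00132). With mivebresib DLX5 (-2.90, adjusted p = 0.000161) and FOXC2 (-2.75, adjusted p = 0.000169) fell and TBX3 rose (1.20, adjusted p = 2.34e-05). SOX10, which specifies the melanocyte lineage, measured 216 and 202 CPM in the control, 149 and 169 CPM with romidepsin, 107 and 114 CPM with quisinostat, and 57.2 and 52.8 CPM with mivebresib. It fell with all 3 drugs (-0.39, adjusted p = 0.0141, -0.92, adjusted p = 8.28e-05, and -1.93, adjusted p = 3.8e-06). The first call was lost without romidepsin replicate 1 and with the 4 libraries of that comparison alone. MITF, the master regulator of melanocytes, was at 351 and 349 CPM in the control and fell with quisinostat (-1.39, adjusted p = 4.19e-06) and mivebresib (-1.47, adjusted p = 4.67e-06), as did FOXD3, which represses it in the embryo. With romidepsin the estimate for MITF was -0.22 (adjusted p = 0.0587). Among the paralogues of the members, 6 of 8 were tested, with 0 higher and 1 lower with romidepsin and 1 of each with quisinostat and mivebresib. TFAP2E, another AP-2 gene, fell from 3.97 ± 0.295 CPM to 1.40 ± 0.141 with quisinostat (adjusted p = 0.000234) and 1.20 ± 0.0142 with mivebresib (adjusted p = 0.000172), and FOXD1 fell with romidepsin (-0.57, adjusted p = 0.0352), a call that was lost in 11 of 16 other settings.

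Partners of these factors were counted next, and several of these counts lie near the shares of all genes. Those shares were 15.2% higher and 15.8% lower with romidepsin, 28% and 25.1% with quisinostat, and 22.2% and 24.1% with mivebresib. Of 7 E proteins and ID proteins, which are the dimer partners and inhibitors of Twist factors, 0 rose and 3 fell with romidepsin and with quisinostat, and 2 rose and 3 fell with mivebresib. TCF3 fell with romidepsin (-0.60, adjusted p = 0.0013) and TCF12 with quisinostat (-0.58, adjusted p = 0.000421) and mivebresib (-0.68, adjusted p = 0.000212). ID2, an inhibitor of E proteins, fell with romidepsin (-0.69, adjusted p = 0.00141) and rose with mivebresib (0.54, adjusted p = 0.00225). Of 6 AP-2 cofactors, 0 rose and 2 fell with romidepsin, 1 rose and 3 fell with quisinostat, and 2 rose and 3 fell with mivebresib. KCTD15, an inhibitor of AP-2 activity in the neural crest, measured 109 and 106 CPM in the control, 40.6 and 42.2 CPM with romidepsin, 50.6 and 49.0 CPM with quisinostat, and 29.5 and 29.7 CPM with mivebresib. It fell with all 3 drugs (-1.37, -1.11 and -1.86), the largest adjusted p being 3.64e-05. The coactivator gene CITED1 also fell with all 3 (-0.73, -2.28 and -2.96, largest adjusted p = 0.012), whereas CITED2 rose with quisinostat (0.44, adjusted p = 0.0161) and mivebresib (1.08, adjusted p = 0.000204). CITED1 lost its call with romidepsin without romidepsin replicate 1 and with the 4 libraries of that comparison alone. CITED2 lost that with quisinostat without quisinostat replicate 1.

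Of 19 corepressors that Snail and ZEB proteins recruit, 2 rose and 6 fell with romidepsin, 1 rose and 7 fell with quisinostat, and 3 rose and 1 fell with mivebresib. The shares of all genes were 15.2% and 15.8% with romidepsin, 28% and 25.1% with quisinostat, and 22.2% and 24.1% with mivebresib. SUV39H1, a histone H3 lysine methyltransferase, was at 18.4 and 18.5 CPM in the control and fell to 7.66 and 7.47 CPM with romidepsin, 7.38 and 5.64 CPM with quisinostat, and 8.52 and 7.48 CPM with mivebresib (largest adjusted p = 0.000377). CTBP1, a corepressor of ZEB proteins, fell with romidepsin (-0.75, adjusted p = 0.000518), while KDM1A, the demethylase that binds SNAI1, rose (0.39, adjusted p = 0.00488). Of 16 genes for the turnover of Snail, Twist and ZEB proteins, 0 rose and 3 fell with romidepsin, 2 rose and 8 fell with quisinostat, and 3 rose and 4 fell with mivebresib. USP51, a deubiquitinase, fell with romidepsin (-1.39, adjusted p = 0.000701) and quisinostat (-0.67, adjusted p = 0.00732), and the phosphatase gene CTDSP1 fell with romidepsin (-0.68, adjusted p = 0.00842) and mivebresib (-1.02, adjusted p = 0.000612). The CTDSP1 call with romidepsin was lost without either romidepsin library (adjusted p up to 0.064). RNA does not report the protein level of these factors.

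Of 23 TGF-beta and BMP genes, a pathway that induces EMT, 4 rose and 6 fell with romidepsin, 8 rose and 7 fell with quisinostat, and 5 rose and 4 fell with mivebresib. For all genes the shares were 15.2% and 15.8% with romidepsin, 28% and 25.1% with quisinostat, and 22.2% and 24.1% with mivebresib. The ligand gene BMP4 fell from 5.95 ± 0.507 CPM to 3.65 ± 0.250, 2.68 ± 0.550 and 0.815 ± 0.221 CPM with romidepsin, quisinostat and mivebresib (largest adjusted p = 0.0256), and the romidepsin call was lost without control replicate 1 or either romidepsin library (adjusted p up to 0.144). BMP7 rose from 1.55 ± 0.135 CPM to 3.46 ± 0.261, 11.2 ± 0.990 and 3.33 ± 0.627 CPM (largest adjusted p = 0.0033). SMAD3, a transducer of TGF-beta, fell with quisinostat (-1.01, adjusted p = 1.31e-05), TGFB3 fell with mivebresib (-1.89, adjusted p = 0.000114) and the SMAD repressor SKI rose with it (0.79, adjusted p = 0.000137). Of 16 other inducers, 5 rose and 4 fell with romidepsin, 1 rose and 10 fell with quisinostat, and 3 rose and 4 fell with mivebresib. The Notch ligand JAG1 rose with romidepsin (1.26, adjusted p = 0.003) and quisinostat (0.73, adjusted p = 0.0181), the latter not without quisinostat replicate 2 (0.103). FOSL1 fell with quisinostat (-1.01, adjusted p = 7.57e-05), HMGA2 fell with mivebresib (-0.97, adjusted p = 0.000778) and JUN rose with it (0.85, adjusted p = 4.78e-05).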

How the data were processed

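MP38 cells were sequenced as 4 groups of 2 libraries, mapped to treatment and replicate from the labels. RNA was made into strand-specific paired-end libraries and processed by the authors with BioJupies. The count table was deposited by the authors without normalization. The submitters' processing notes name the build hg38, and the aligner and annotation are not given in the sources used here. Deposited tables of log CPM and quantile-normalized values were not used.

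The quasi-likelihood test of edgeR 4.0.16 (R 4.3.3) was applied to the counts, using TMM factors, the filterByExpr filter with group sizes, a single glmQLFit over all 8 libraries and glmQLFTest for 6 comparisons, with p adjusted after Benjamini and Hochberg over 15085 genes. SEs are the log2 fold change over the square root of the F statistic, intervals use the fitted degrees of freedom, and the biological coefficient of variation was 0.0938. CPM used TMM-scaled library sizes, and log2 CPM a prior count of 2. With total counts of 28483235 to 29359024, counting error weighs most on SNAI1, FOXD3 and TFAP2B. It is not negligible for ZEB1, TWIST1 and TWIST2, which had 149 to 532 counts per library. On simulated counts for quisinostat against control (14646 genes, 200 changed by a log2 fold change of 1.5) edgeR recovered 99% with 10 false calls. The simulation gave all groups the same spread and used only this size of change. It therefore does not cover the smaller changes of most members or the wider spread of the control wells.

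Positions and lengths came from GENCODE 29 and promoters from RefSeq. The members and the gene lists were chosen with earlier results of these data known. Named from each list were at most 2 genes with the largest rise and 2 with the largest fall per drug among those called with a mean CPM of at least 1, of which the text gives a part, the melanocytic markers, and the 3 genes most correlated with each member. Alternatives were DESeq2 1.42.0, limma-voom (limma 3.58.1), other scalings and filters, a replicate block, the 4 libraries of a comparison alone, each library left out and the fold threshold of the study. No batch is given in the labels.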

Additional observations from a re-analysis of the deposited data

How the results depend on the processing

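Of 906 refitted log2 fold changes of the members (54 results under up to 17 alternatives), 836 kept their direction and side of the threshold, 54 no longer passed, 11 newly passed and 5 changed sign. The sign changes were all in estimates that did not pass: TWIST2 with quisinostat ran from -0.52 to 0.18 and SNAI1 with mivebresib from -0.24 to 0.39 when single libraries were left out, and ZEB2 between quisinostat and romidepsin became 0.085 with library size alone and 0.0028 with upper-quartile factors. Library size alone moved the median of all genes to 0.20 for quisinostat against control and to -0.21 for mivebresib against quisinostat. There, 0 members were higher with mivebresib in place of 2, and 1 was with upper-quartile factors or a minimum mean of 5 CPM. With the fold threshold of 1.5 the counts higher and lower were 1 and 0 (romidepsin), 0 and 0 (quisinostat), 0 and 1 (mivebresib), 0 and 0 (quisinostat against romidepsin), 0 and 1 (mivebresib against romidepsin) and 0 and 0 (mivebresib against quisinostat), as the rule itself is stricter. Leaving out each library gave 3 to 6 members lower with romidepsin, 2 to 4 higher and 2 to 5 lower with quisinostat, 0 to 4 higher with quisinostat than romidepsin, 1 to 2 higher with mivebresib than romidepsin and 1 to 2 higher with mivebresib than quisinostat. A lone library left in a group was assumed to vary like the others. Libraries left out reduce the samples, and the cause of the other changes was not tested. The longest transcript changed the rank of 4 members. Replicate numbers did not pair the samples (correlations of deviations from -0.16 to 0.16), and with the replicate block TFAP2A with quisinostat (0.22, adjusted p = 0.0546) and ZEB1 with mivebresib (0.35, adjusted p = 0.0571) did not pass. Of 1903 refits of other named genes, 122 lost the call and 0 changed sign. With 2 libraries per group, small changes and the scarce SNAI1 are the least certain.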
